A study of Homo sapiens with 4 samples.

Results

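The enzymes that place acyl groups on histone lysines, those that remove them and the proteins that bind them were examined in RKO cells with and without HADH-S. The group was a list of gene symbols, drawn up with earlier results of these data known, and comprised 34 of the 13092 genes listed in either table: 10 writers, 18 erasers and 6 readers. All 34 were listed in both libraries. RKO is an established human colon carcinoma line. RNA was sequenced from RKO cells overexpressing HADH-S, which the series title describes as a nuclear isoform of hydroxyacyl-CoA dehydrogenase, and from RKO cells labelled as control and wild type, with 1 library for each and no replicates. The labels do not state the vector of the control cells, the number of clones or the time of harvest. The series also contains ChIP of HADH-S with its input, both from overexpressing cells and not analysed here.

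Histone acylation involves 3 kinds of protein. Acyltransferases (writers) use acetyl-CoA, and some of them longer acyl-CoAs such as crotonyl-CoA or beta-hydroxybutyryl-CoA, to modify lysines on histone tails, which weakens the contact between histone and DNA. Zinc-dependent histone deacetylases (HDACs) and NAD-dependent sirtuins (erasers) remove these groups, and bromodomain and YEATS-domain proteins (readers) bind the modified lysine and bring transcription factors to it. The HDACs are the targets of drugs used in lymphoma, and the short-chain acid butyrate, abundant in the colon, inhibits several of them.

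The 2 libraries held 6963608 reads assigned to genes with HADH-S and 6773421 in the control. Levels are in RPKM, reads per kilobase of the listed transcript scaled to library size, and intervals are exact 95% intervals from read numbers recovered from RPKM. They cover counting error only and not the spread between cultures or libraries, since each condition had 1 library. PCR copies of 1 molecule cannot be told from separate molecules, so the intervals may be too narrow even for counting error. No test between conditions can be made from single libraries, so "higher" and "lower" describe these 2 libraries. HADH, the overexpressed gene, stood at 54.4 RPKM in overexpressing cells and 26.5 RPKM in control cells, in the direction of the label. This single value per library does not separate HADH-S from other transcripts of HADH. Of the epithelial markers, KRT18 stood at 93.8 RPKM in overexpressing and 91.7 RPKM in control cells. EPCAM was at 9.57 and 8.20, CDX2 at 4.37 and 3.60 and KRT8 at 2.81 and 2.54. CDH1, KRT19, KRT20 and VIL1 were not listed in either library. A mean RPKM of 1 was reached by 0 of 7 fibroblast markers, 1 of 6 endothelial markers (EGFL7) and 3 of 9 leukocyte markers (CD68, LCP1 and CORO1A). CD68, at 478 RPKM in overexpressing and 389 in control cells, and LCP1, at 222 and 249, stood above KRT18. EGFL7 was at 58.6 and 48.6 RPKM and CORO1A at 6.85 and 7.45. COL1A1, LUM, THY1 and CLDN5 were listed with a mean RPKM under 1. The remaining fibroblast, endothelial and leukocyte markers, among them COL1A2, PECAM1, PTPRC and CD3E, were not listed in either library.

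Most of these genes were at nearly the same level in both libraries, and 4 of the 7 counted as higher were sirtuins. The rule of size asked for a difference of at least 1.2-fold in (RPKM + 1) in a gene whose mean RPKM reached 1. HDAC4 (0.656 RPKM with HADH-S, 0.970 in the control) and HDAC6 (0.997 and 0.742) fell below that mean, which left 32 of the 34. SIRT4 reached it only through the HADH-S library, at 2.36 RPKM against 0.607 in the control. The filter thus kept the largest ratio of the 34 genes and left out the smallest, that of HDAC4 (0.676). By this rule 7 of the 32 members (21.9%) were higher with HADH-S, against a background of 11.5% of the 10331 genes tested, and 0 were lower, against 6.76%. The 7 were the erasers SIRT3, SIRT4, SIRT5, SIRT6, HDAC5 and HDAC11 and the writer KAT2A. Of these, SIRT3, SIRT4 and SIRT5 are mitochondrial enzymes, and without them 4 of 29 members were higher, beside 11.5% of all genes. The counting interval of the RPKM ratio lay above 1 for 5 of the 32 members (background 13.8%) and below 1 for 1 member, HAT1 (background 11.6%). Both criteria together were met by 5 members upward, against 8.06% of all genes, and by 0 downward, against 4.56%. Low genes passed the rule more often: among genes at a mean RPKM of 1 to under 5, a split chosen after the values were seen, 19.1% of all genes and 5 of 10 members were higher, and at 5 or above 9.19% of all genes and 2 of 22 members. The median log2 of the ratio of (RPKM + 1) was -0.02 for the 10 writers, 0.10 for the 16 erasers and 0.03 for the 6 readers, beside 0.01 for all genes tested. The order of these medians was not stable: at a minimum mean RPKM of 5 they were 0.06, -0.02 and 0.01, and without the trend with transcript length 0.05, 0.07 and 0.07. The reads of all 34 genes together gave a ratio of 1.00, with an interval of 0.978 to 1.03.

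**Figure D1:**
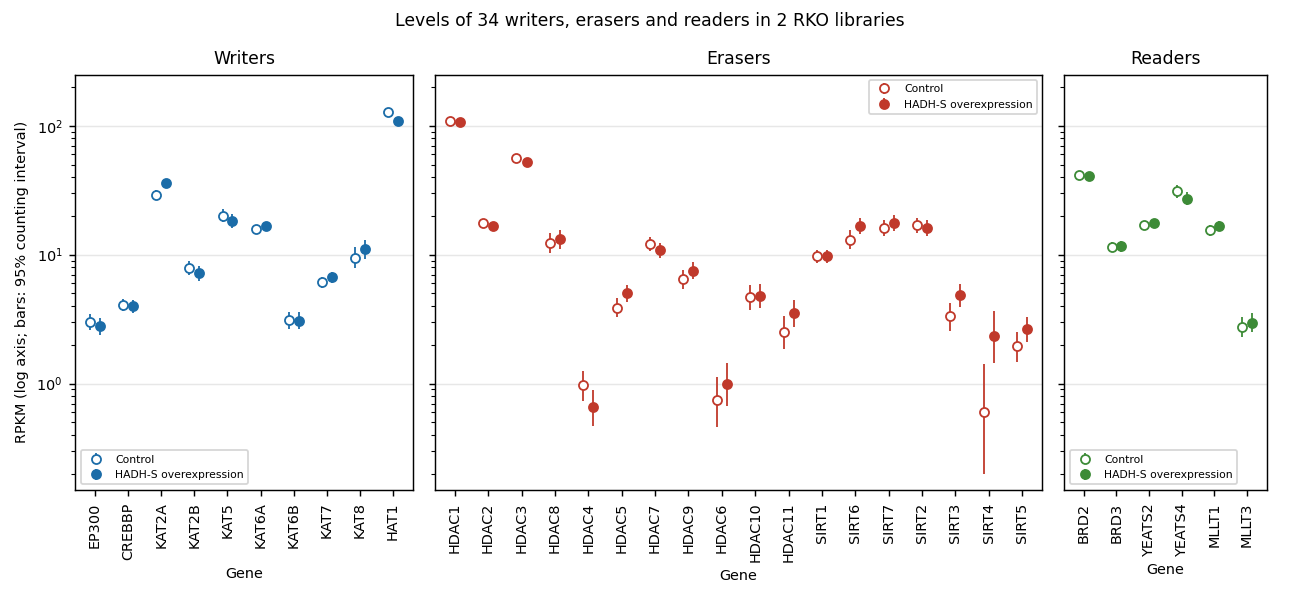
RPKM of each of the 34 genes (log axis) in the control library (open circles) and the HADH-S library (filled circles), with writers, erasers and readers in separate panels and 95% counting intervals as bars. Levels range from 0.607 RPKM (SIRT4, control) to 128 RPKM (HAT1, control), and for most genes the bars of the 2 libraries overlap.

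Levels among the members spanned more than the difference between libraries for any of them. HAT1 and HDAC1 were the most abundant in both libraries, each above more than 95% of listed genes, followed by HDAC3. The lowest were HDAC4 and HDAC6, with SIRT4 in the control. In the order of levels, 27 of the 33 pairs of neighbours had overlapping counting intervals in each library, so most of the middle of the order is not resolved. Each gene is represented by 1 transcript, whose length sets the RPKM. HDAC2 was listed with a transcript of 9737 nt of which 1464 nt are coding, whereas that of HDAC1 had 2118 nt with 1446 coding. HDAC2 thus stood at 16.7 RPKM with HADH-S against 107 for HDAC1, although the read numbers were 1135 and 1571. The same holds for KAT7, listed with 9514 nt of which 1833 are coding.

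Among the writers, EP300 and CREBBP, the p300 and CBP coactivators that acetylate H3K27 at enhancers and can also use crotonyl-CoA and other acyl-CoAs, did not differ beyond counting error. EP300 was at 2.80 RPKM with HADH-S and 3.01 in the control (ratio 0.929, interval 0.749 to 1.15). CREBBP was at 3.99 and 4.08 RPKM (ratio 0.979, interval 0.831 to 1.15). CREBBP stood above EP300 in both libraries, with separate intervals, and both were in the lower part of the range of the members.

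The GNAT enzymes KAT2A (GCN5) and KAT2B (PCAF), which acetylate H3K9 as alternative catalytic subunits of the SAGA and ATAC complexes, had ratios on opposite sides of 1. KAT2A was at 35.9 RPKM with HADH-S and 29.3 in the control, from 779 and 618 reads, a ratio of 1.23 with an interval of 1.10 to 1.36. It was the only writer past the 1.2-fold rule, and it lay close to the limit: its log2 value was 0.29 as deposited and 0.26, just short of the rule, after both libraries were scaled to equal RPKM totals. KAT2B was at 7.20 and 7.93 RPKM (ratio 0.907, interval 0.752 to 1.09). KAT2A made up 83.3% of the summed RPKM of the pair with HADH-S and 78.7% in the control.

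HAT1, the type B enzyme that acetylates newly made histone H4 before its assembly into chromatin, was the 1 member with a counting interval below 1. It was at 110 RPKM with HADH-S and 128 in the control, from 1251 and 1412 reads, a ratio of 0.862 with an interval of 0.798 to 0.931. The difference was smaller than 1.2-fold.

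The 5 MYST enzymes all had intervals that included 1. KAT5 (TIP60), the catalytic subunit of NuA4, was at 18.2 RPKM with HADH-S and 20.1 in the control (ratio 0.907, interval 0.764 to 1.08). KAT8 (MOF), which acetylates H4K16, was at 11.1 and 9.49 RPKM (ratio 1.17, interval 0.905 to 1.51). These were the members of the family farthest from 1 in each direction. KAT6A was at 16.7 and 15.9 RPKM and its paralog KAT6B at 3.07 and 3.11, both catalytic subunits of H3K23-acetylating complexes, and KAT7 (HBO1), which acts at replication origins among other sites, was at 6.66 and 6.10. The summed reads of the family gave a ratio of 1.04 (interval 0.975 to 1.10). KAT5 overlaps RNASEH2C and KAT7 overlaps FAM117A in the annotation, and no source used here says whether counting used strand, so reads may be shared between them.

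The promoter windows of KAT2A and HAT1 are shown because these were the 2 writers whose counting intervals lay off 1, on opposite sides. They run from 250 bases before to 50 bases after the RefSeq start on GRCh38.p14, KAT2A at chr17:42121318-42121617 on the minus strand and HAT1 at chr2:171922211-171922510 on the plus strand, both printed 5′ to 3′ along the gene. Capitals mark the letters of any of 5 motifs searched on both strands: the GC box (GGGCGG), the CCAAT box (CCAAT), the TATA box (TATAAA), the NRF1 motif (GCGCANGCGC) and the core of the interferon response element (GAAANNGAAA).
KAT2A: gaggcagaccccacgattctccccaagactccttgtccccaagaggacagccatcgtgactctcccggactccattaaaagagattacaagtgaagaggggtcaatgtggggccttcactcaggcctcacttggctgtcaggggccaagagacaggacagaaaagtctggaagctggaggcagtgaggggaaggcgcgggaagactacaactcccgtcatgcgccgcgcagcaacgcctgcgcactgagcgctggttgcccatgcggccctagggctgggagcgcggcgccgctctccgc
HAT1: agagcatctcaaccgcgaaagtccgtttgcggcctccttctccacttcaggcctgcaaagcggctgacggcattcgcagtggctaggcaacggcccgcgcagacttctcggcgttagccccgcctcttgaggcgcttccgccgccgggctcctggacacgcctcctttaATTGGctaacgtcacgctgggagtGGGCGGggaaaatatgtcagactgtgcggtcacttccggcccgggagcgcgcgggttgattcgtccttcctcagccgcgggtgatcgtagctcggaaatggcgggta
The HAT1 window held a GC box beginning 57 bases before the start and, on the other strand, a CCAAT box beginning 81 bases before it, while none of the 5 motifs was in the KAT2A window. Of all 35116 windows in the table, 45.0% held a GC box, 34.6% a CCAAT box, 11.5% a TATA box, 5.78% an NRF1 motif and 3.57% the interferon response core. Windows were found for 30 of the 34 members, of which 20 had a GC box, 11 a CCAAT box, 6 an NRF1 motif, 2 the interferon response core and 1 a TATA box. A member was counted if any of its windows held the motif, so its count cannot be set directly against the share of single windows. These counts describe letters in the sequence and not bound sites.

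Among the erasers, the class I HDACs were the most abundant family and did not differ beyond counting error. Of these, HDAC1, HDAC2 and HDAC3 are the nuclear catalytic subunits of the NuRD, Sin3, CoREST and NCoR/SMRT complexes. HDAC1 was at 107 RPKM with HADH-S and 109 in the control (ratio 0.975, interval 0.909 to 1.05). HDAC2 was at 16.7 and 17.5 RPKM (ratio 0.956, interval 0.880 to 1.04). HDAC3, the enzyme of NCoR/SMRT, was at 52.4 and 56.7 RPKM (ratio 0.923, interval 0.831 to 1.02). HDAC8, which deacetylates the cohesin subunit SMC3, was at 13.2 and 12.4 RPKM, within its counting error. The reads of the 4 genes together had a ratio of 0.962, with an interval of 0.918 to 1.01.

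The class IIa HDACs shuttle between nucleus and cytoplasm and have little catalytic activity of their own. HDAC5 was higher, at 5.02 RPKM with HADH-S and 3.88 in the control, from 186 and 140 reads (ratio 1.29, interval 1.03 to 1.62). HDAC7 was at 10.8 and 12.1 RPKM and HDAC9 at 7.52 and 6.48, on opposite sides of 1 and both with intervals that included it. HDAC4 was at 0.656 and 0.970 RPKM, from 41 and 59 reads, with an interval of 0.442 to 1.02 that also included 1. HDAC7 overlaps SLC48A1 in the annotation. Summed over the class, the ratio was 1.02 (interval 0.915 to 1.15), so HDAC5 was higher within a family whose total was close to equal.

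In the remaining HDAC classes no interval excluded 1. HDAC6, the cytoplasmic tubulin deacetylase of class IIb, was at only 0.997 and 0.742 RPKM, from 29 and 21 reads. HDAC10, a polyamine deacetylase of the same class, was at 4.81 and 4.66 RPKM (ratio 1.03, interval 0.753 to 1.42). HDAC11, the single class IV enzyme and a remover of long fatty acyl groups, was past the 1.2-fold rule at 3.51 and 2.51 RPKM, but its 69 and 48 reads gave a ratio of 1.398 with an interval of 0.953 to 2.07.

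The sirtuins, which use NAD as cosubstrate, had 6 of 7 members above 0 on the log2 scale, where 52.2% of all genes tested lay. Of the 6, SIRT1 was at 0.00 and fell below 0 when RPKM totals were made equal or the median was set to 0. The median of the 7 was 0.31, against 0.04 for the 9 HDACs with a mean RPKM of at least 1. That median is the value of SIRT5, whose counting interval included 1. The 7 include SIRT4, which passed the filter only through the HADH-S library. The 4 sirtuins outside mitochondria had a median of 0.06, so the higher median of the family rests on the low mitochondrial genes. The mitochondrial sirtuins SIRT3, SIRT4 and SIRT5 and the nuclear SIRT6 were the 4 past the 1.2-fold rule. SIRT3, the main mitochondrial deacetylase, was at 4.83 RPKM with HADH-S and 3.33 in the control, from 97 and 65 reads (ratio 1.45, interval 1.05 to 2.02). SIRT4, a lipoamidase and remover of branched acyl groups, was at 2.36 and 0.607 RPKM, from 20 and 5 reads (ratio 3.89, interval 1.42 to 13.3). SIRT5, which removes succinyl, malonyl and glutaryl groups, was at 2.64 and 1.94 RPKM, from 84 and 60 reads (ratio 1.36, interval 0.966 to 1.93). All 3 were higher with HADH-S, and the intervals lay above 1 for SIRT3 and SIRT4 but not for SIRT5. The largest of these ratios rests on the fewest reads of any member. Together the 3 genes had 201 and 130 reads, a ratio of 1.504 with an interval of 1.2002 to 1.89. Without SIRT4 the ratio was 1.41 (interval 1.12 to 1.78). These sums pool genes already counted as higher in the same 2 libraries, so they are no separate support. The 3 were low genes, at a level where 19.1% of all genes were counted as higher.

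Outside the mitochondria SIRT6 was the only sirtuin past the 1.2-fold rule and the only one with an interval above 1, beside 13.8% of all genes. With a pseudocount of 5 its log2 value was 0.26, just short of the rule. SIRT6, a nuclear remover of H3K9 and H3K18 acetyl groups and of long fatty acyl groups, was at 16.7 RPKM with HADH-S and 13.1 in the control, from 186 and 142 reads (ratio 1.27, interval 1.02 to 1.60). SIRT7, a nucleolar enzyme that acts on H3K18, was at 17.6 and 16.2 RPKM (ratio 1.09, interval 0.893 to 1.33). SIRT1, which acts on p53 and other nuclear proteins, was at 9.72 and 9.71 RPKM, with a ratio of 1.00. The cytosolic SIRT2, a deacetylase of tubulin and of H4K16 in mitosis, was at 16.2 and 16.9 RPKM (ratio 0.959, interval 0.789 to 1.17). The 4 sirtuins outside mitochondria thus lay between 9.71 and 17.6 RPKM in both libraries and summed to a ratio of 1.06 (interval 0.962 to 1.17).

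**Figure D2:**
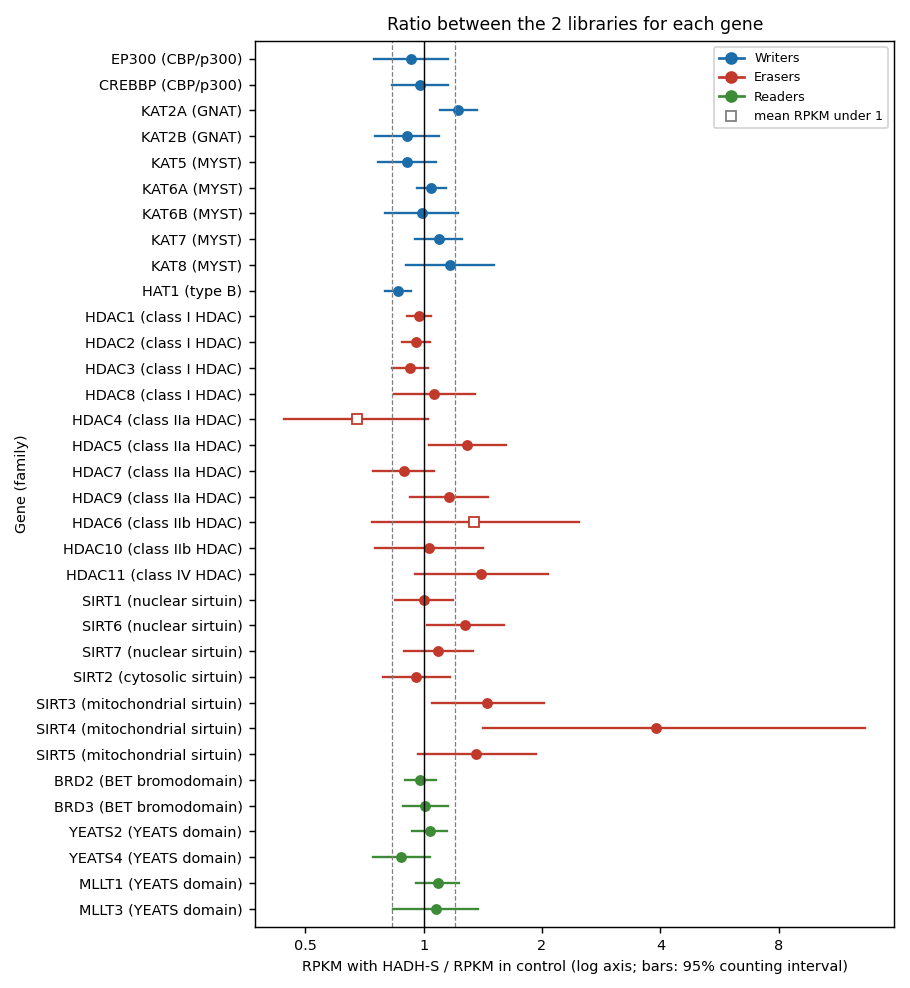
Ratio of RPKM with HADH-S to RPKM in the control (log axis) for each gene, ordered by family, with 95% counting intervals as bars, a solid line at 1 and dashed lines at 1.2-fold either way; open squares have a mean RPKM under 1. SIRT4 lies farthest to the right at 3.89 with the widest bar, SIRT3, SIRT6, HDAC5 and KAT2A have bars above 1, and HAT1 is the 1 gene with a bar below 1.

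The promoter windows of the mitochondrial sirtuins are shown because each of these 3 genes was counted as higher by the rule of size. SIRT4 was so counted from 20 and 5 reads, and SIRT5 had an interval that included 1. The choice rests on the same 2 libraries, and a shared change of the 3 was not tested. SIRT3 (chr11:236882-237181, minus strand) has 1 window, SIRT4 has 2 RefSeq starts (chr12:120291939-120292238 and chr12:120302071-120302370, plus strand), and of the 2 overlapping windows of SIRT5 the first listed is given (chr6:13574351-13574650, plus strand). Bases are as above, with capitals for the same motifs.
SIRT3: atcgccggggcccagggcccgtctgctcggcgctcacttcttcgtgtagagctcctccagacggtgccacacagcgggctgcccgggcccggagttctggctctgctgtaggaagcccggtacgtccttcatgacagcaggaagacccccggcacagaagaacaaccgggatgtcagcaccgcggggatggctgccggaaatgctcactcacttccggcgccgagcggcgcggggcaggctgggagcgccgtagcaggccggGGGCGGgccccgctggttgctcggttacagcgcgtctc
SIRT4, upstream start: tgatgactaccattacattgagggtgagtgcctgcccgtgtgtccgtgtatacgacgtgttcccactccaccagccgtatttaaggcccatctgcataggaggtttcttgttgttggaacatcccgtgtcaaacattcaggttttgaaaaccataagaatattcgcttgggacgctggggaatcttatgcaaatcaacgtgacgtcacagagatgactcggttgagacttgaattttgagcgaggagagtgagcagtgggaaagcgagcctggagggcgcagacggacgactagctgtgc
SIRT4, downstream start: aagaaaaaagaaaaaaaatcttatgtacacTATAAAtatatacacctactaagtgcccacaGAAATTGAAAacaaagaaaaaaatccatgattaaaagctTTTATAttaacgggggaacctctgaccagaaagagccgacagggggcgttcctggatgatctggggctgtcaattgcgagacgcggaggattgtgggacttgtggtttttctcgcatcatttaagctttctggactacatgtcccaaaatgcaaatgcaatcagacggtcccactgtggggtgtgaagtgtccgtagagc
SIRT5: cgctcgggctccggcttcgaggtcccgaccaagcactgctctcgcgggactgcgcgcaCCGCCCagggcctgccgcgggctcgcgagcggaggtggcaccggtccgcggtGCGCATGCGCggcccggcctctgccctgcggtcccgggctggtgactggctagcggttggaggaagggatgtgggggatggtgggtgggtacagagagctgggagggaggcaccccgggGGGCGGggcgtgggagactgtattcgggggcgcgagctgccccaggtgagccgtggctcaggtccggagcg
SIRT3 and SIRT5 had GC-rich windows, with 69.3% and 74.7% G and C, while those of SIRT4 had 50.3% and 42.3%. The SIRT3 window held a GC box and that of SIRT5 held 2 GC boxes and the palindromic NRF1 motif, beginning 140 bases before the start. The downstream window of SIRT4 held 2 TATA motifs and the interferon response core, the latter beginning 189 bases before the start. No motif was common to the 3 genes, and none of the 5 was in the upstream SIRT4 window. The deposited tables do not say which start was used. SIRT3 overlaps RIC8A in the annotation, which was at 55.4 and 50.2 RPKM (ratio 1.10), far above SIRT3 itself, and reads shared between them were not tested.

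Among the readers no member passed the rule and every counting interval included 1. BRD2 and BRD3, BET proteins whose paired bromodomains bind acetylated histone H4, were at 40.6 and 41.3 RPKM and at 11.6 and 11.5 RPKM with HADH-S and in the control. Their ratios were 0.982 (interval 0.897 to 1.07) and 1.01 (interval 0.884 to 1.15). The YEATS proteins, whose domain accommodates crotonyl as well as acetyl groups, stood farther from 1. YEATS4 (GAS41), a reader in the NuA4 and SRCAP complexes, was at 27.2 and 31.0 RPKM (ratio 0.878, interval 0.744 to 1.04). MLLT1 (ENL), of the super elongation complex, was at 16.8 and 15.4 RPKM (ratio 1.09, interval 0.959 to 1.23). YEATS2, of the ATAC complex that also holds KAT2A, was at 17.5 and 16.9 RPKM, and MLLT3 (AF9), the paralog of MLLT1, at 2.97 and 2.77. MLLT3 was the lowest reader in both libraries, and MLLT1 stood above it with separate intervals. The 6 readers together had a ratio of 1.01 (interval 0.959 to 1.06).

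**Figure D3:**
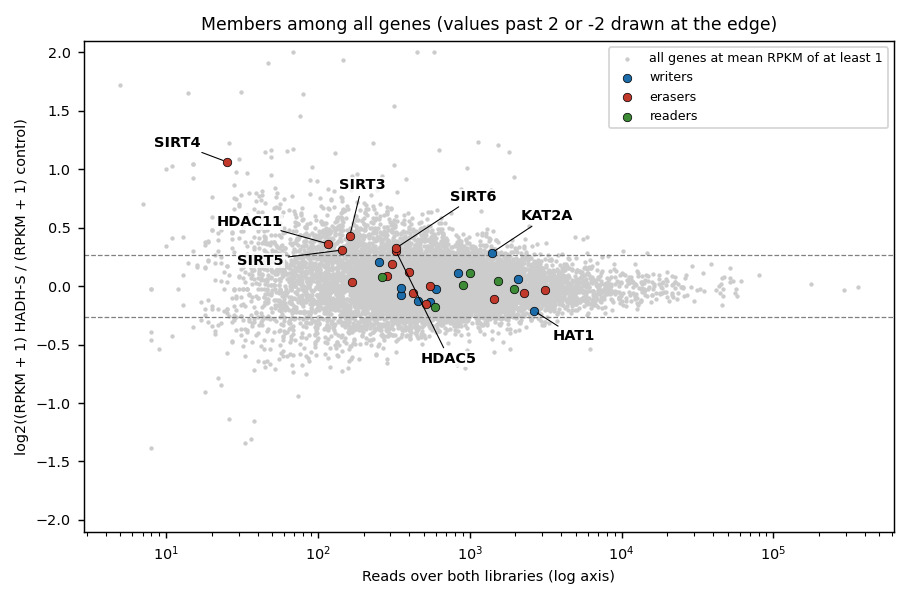
Log2 of the ratio of (RPKM + 1) between the HADH-S and control libraries against the reads of each gene over both libraries (log axis), for all 10331 genes at a mean RPKM of at least 1 (grey) and the 32 members among them (coloured by role), with dashed lines at 1.2-fold. The members lie within the cloud of all genes, and SIRT4, at 25 reads, sits in its thin left edge at 1.06.

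The proteins that work with the members were described by 5 lists, each read against the 11.5% of all genes counted as higher and the 6.76% counted as lower. Of the partners of the writers in SAGA, ATAC, NuA4, MOZ/MORF, HBO1 and MSL/NSL complexes, 3 of 45 were higher and 5 were lower, with a median of 0.02. BRPF1, the scaffold of the KAT6A and KAT6B complexes, was at 9.02 RPKM with HADH-S and 6.54 in the control (ratio 1.38, interval 1.15 to 1.65). DMAP1, a NuA4 subunit, was at 15.2 and 11.5 RPKM (ratio 1.32, interval 1.05 to 1.65). SGF29, which binds methylated H3K4 in SAGA and ATAC, was at 4.83 and 3.18 RPKM, with an interval of 0.895 to 2.62 that included 1. These were the 3 with the largest absolute values.

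Of the 36 partners in HDAC corepressor complexes, 2 were higher and 3 lower, against 11.5% and 6.76% of all genes, with a median of 0.02. GPS2, a subunit of the HDAC3 complex NCoR/SMRT, was at 33.4 RPKM with HADH-S and 23.2 in the control (ratio 1.44, interval 1.21 to 1.72). PHF21A, which binds unmethylated H3K4 in the CoREST complex, was at 5.37 and 7.25 RPKM (ratio 0.740, interval 0.567 to 0.965). RCOR2, a CoREST scaffold, was at 2.32 and 3.24 RPKM, with an interval of 0.480 to 1.06. GPS2 thus differed by more than HDAC3 itself, whose ratio was 0.923.

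Of 27 further acyl-lysine readers, 2 were higher and 3 lower, against 11.5% and 6.76% of all genes, and the median was -0.07. PHIP, a bromodomain protein, was at 16.6 RPKM with HADH-S and 21.2 in the control, from 1378 and 1713 reads (ratio 0.782, interval 0.728 to 0.840). DPF1, a double PHD finger subunit of neuronal BAF complexes, was at 2.20 and 3.17 RPKM, with an interval of 0.399 to 1.19. PHIP lay below 1 by more than its counting error, and DPF1 did not.

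Of 21 genes of acyl-CoA supply and use, 3 were higher and 1 lower, close to the 11.5% and 6.76% of all genes, with a median of 0.00. ACSF2, a mitochondrial acyl-CoA synthetase, was at 4.40 RPKM with HADH-S and 1.902 in the control, from 69 and 29 reads (ratio 2.31, interval 1.48 to 3.70). HMGCS1, the cytosolic HMG-CoA synthase of cholesterol synthesis, was at 10.4 and 15.7 RPKM (ratio 0.663, interval 0.581 to 0.755). The third by size was OGDH, which yields succinyl-CoA, at 16.9 and 12.3 RPKM. In the list of NAD supply, 1 of 9 genes was higher and 0 were lower, close to the same background, with a median of 0.06. NAPRT, which makes NAD precursor from nicotinic acid, was at 40.3 and 31.6 RPKM (ratio 1.28, interval 1.11 to 1.47). NAMPT, the enzyme of nicotinamide salvage, was at 40.0 and 44.8 RPKM (ratio 0.893, interval 0.826 to 0.966), and NMNAT1, the nuclear enzyme of the final step, at 3.23 and 2.53, within its counting error. NAPRT and NAMPT, which feed NAD from different precursors, thus lay on opposite sides of 1.

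**Figure D4:**
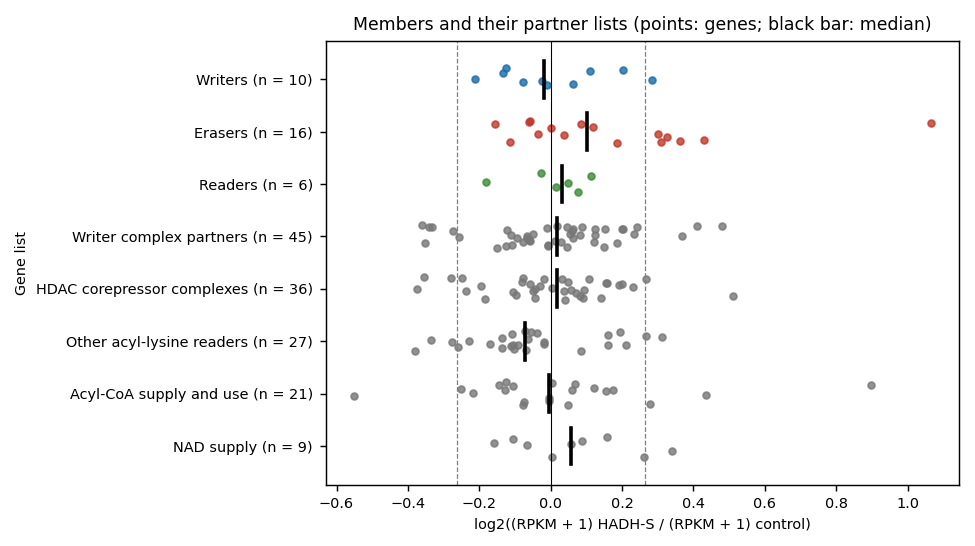
Log2 of the ratio of (RPKM + 1) between the HADH-S and control libraries for each gene (points) of the 3 roles (coloured) and of 5 lists of partner genes (grey), at a mean RPKM of at least 1, with the median as a black bar and dashed lines at 1.2-fold. The medians lie between -0.07 for the further acyl-lysine readers and 0.10 for the erasers, whose point farthest to the right is SIRT4 at 1.06.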

How the data were processed

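Each RNA library has 1 table of RPKM values deposited by the authors, per the file headers. Each row names a symbol, an Ensembl gene and transcript and a transcript length. Per the submitters' processing notes, shared by all samples, fastp 0.23.2, SAMtools 1.9, MACS2 1.4.2, ChIPseeker and GRCh38 were used; for the RNA aligner, counter, strand setting and annotation version the entry is: not given in the sources used here.

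RPKM times length was a whole multiple of 1 step per library (tolerance 0.01 reads), which gave the reads. Python 3.11.15 with scipy 1.17.1 gave exact Poisson intervals of levels and conditional Clopper-Pearson intervals of ratios. Log2 values used a pseudocount of 1. A gene listed in 1 table was taken as 0 in the other. All 34 identifiers matched their symbols in the reference name table. Named genes were HADH, all members and the 3 largest absolute log2 values of each partner list, of which 1 is not reported here. The steps were tested on simulated reads. Members, lists and rules were chosen with earlier results of these data known. Promoters are from RefSeq (GRCh38.p14).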

Additional observations from a re-analysis of the deposited data

How the results depend on the processing

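No paired analysis was possible because each condition had 1 library, and for the same reason leaving out a replicate was not possible. The 7 higher members became 1 with a pseudocount of 5 (SIRT4), 2 at a minimum mean RPKM of 5 (KAT2A and SIRT6), and 1 at a fold of 1.5 and at a fold of 2 (SIRT4). The count of 1193 higher genes among all genes became 550 with a pseudocount of 5, 725 at a minimum mean RPKM of 5, 152 at a fold of 1.5 and 31 at a fold of 2, and that of 698 lower genes became 182, 396, 45 and 5. With a pseudocount of 0.1 or 0.5, RPKM totals made equal, the median set to 0, no filter, removal of the trend with transcript length, and at least 50 reads (added after the data were seen), between 6 and 7 members were higher, and 0 were lower under each setting. These counts leave out HDAC4 and HDAC6 wherever the filter was kept. With a pseudocount of 0.5 or 0.1, HDAC4 was at -0.35 and -0.50, past the rule downward. HDAC6 was then at 0.27 and 0.38, past it upward. No setting combined a smaller pseudocount with no filter. SIRT4, at 25 reads, is the member left out by 50 reads, and its log2 value ranged from 0.39 to 1.80 with the pseudocount. The role medians were near 0 and changed sign for writers (0.06 at a minimum mean RPKM of 5, 0.05 without the length trend) and erasers (-0.02 at a minimum mean RPKM of 5), and without the length trend those of erasers and readers were both 0.07. The direction also changed for SIRT1, BRD3, CREBBP, KAT6B and HDAC2, each within 0.08 of 0. Depth limits SIRT3, SIRT4, SIRT5, HDAC4, HDAC6, HDAC10 and HDAC11 most, each with 97 reads or fewer per library.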
